A study of Mus musculus with 12 samples.

Results

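Glucose uptake, glycolysis, the step from pyruvate into the mitochondrion and glycogen storage were followed through 36 genes in the heart of the inbred mouse strain Balb/c. The genes were listed by name and found through the gene symbol of each array probe, and the brightest probe stood for a gene that had several. Of the 36 genes, 32 had a probe with a single gene symbol (39 probes in all), and 27 could be tested, among 17611 genes tested in the whole series. Testing needed 2 or more values in every one of the 4 groups.

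Mice received 30 mg/kg body weight of a compound called DMA in the labels, which do not expand the name, or DMSO, the vehicle, by gavage. Hearts were taken 24 h or 48 h later, which gave 4 groups of 3 arrays: DMSO 24 h, DMA 24 h, DMSO 48 h and DMA 48 h. No untreated hearts and no age or sex of the mice are given in the sources used here. The labels call the 3 arrays of a group biological replicates and the design text says that RNA was isolated from pooled hearts, so p-values measure the spread between these samples, which may be technical.

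Heart muscle takes up glucose through the insulin-responsive transporter GLUT4 and the basal transporter GLUT1, and hexokinase traps it in the cell as glucose 6-phosphate. Glycolysis then splits the sugar to pyruvate, with phosphofructokinase as the main control point. Pyruvate is either reduced to lactate or oxidised by pyruvate dehydrogenase, whose kinases switch it off when the heart burns fatty acids.

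Several of these genes are known targets of the hypoxia-inducible factors, which bind the core ACGTG, and of factors that bind the E-box CACGTG. The 250 bases before each listed start were searched for both motifs in RefSeq promoters of build GRCm38.p6, where 35 of the 36 genes had an entry. With both strands read and the first listed start of each gene taken, ACGTG was present in 14 of the 35 (40%) and in 16.6% of 27025 genes. CACGTG, which contains ACGTG on both strands, was present in 5 of the 35 (14.3%) and in 6.05% of all genes. With a match before any listed start counted, the shares were 45.7% and 17.1%, against 18.5% and 6.86%, and the 35 genes had 55 listed starts. A match is a description of letters and does not show binding. The promoters of 4 genes are printed because their values recur below. The products of Hk2, Pfkm and Ldha stand at the entry, the control point and the end of the pathway, and that of Pgk1 at a lower step of glycolysis. All 4 were chosen after their values were seen, and all 4 stretches hold ACGTG, so they do not stand for the 35 genes. Of other genes whose values recur below, Hk1, Tpi1, Dlat, Eno2 and Aldoc have no ACGTG before any listed start. Pdhb, Pygm and Pdk3 do have a match. Hk2 lies at chr6:82774455-82774704 (minus strand), Pfkm at chr15:98092339-98092588, Pgk1 at chrX:106186850-106187099 and Ldha at chr7:46845554-46845803 (plus strand for these). Each is the first listed start of its gene. Pfkm has 4 listed starts, of which 2 have no ACGTG, and Ldha has 2, of which 1 has none; the Ldha stretch lies inside the gene record, before a start within it. Capitals mark ACGTG on either strand or CACGTG, and each run reads 5′ to 3′ along the gene.
Hk2: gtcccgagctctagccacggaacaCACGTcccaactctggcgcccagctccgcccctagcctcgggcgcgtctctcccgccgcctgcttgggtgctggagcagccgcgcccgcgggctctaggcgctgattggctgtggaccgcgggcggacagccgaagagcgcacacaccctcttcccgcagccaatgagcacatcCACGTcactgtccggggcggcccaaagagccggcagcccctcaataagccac
Pfkm: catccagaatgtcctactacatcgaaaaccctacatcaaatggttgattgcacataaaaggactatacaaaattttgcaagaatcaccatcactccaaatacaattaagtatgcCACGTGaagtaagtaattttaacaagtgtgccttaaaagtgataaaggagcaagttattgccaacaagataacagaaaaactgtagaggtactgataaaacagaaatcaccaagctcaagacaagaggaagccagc
Pgk1: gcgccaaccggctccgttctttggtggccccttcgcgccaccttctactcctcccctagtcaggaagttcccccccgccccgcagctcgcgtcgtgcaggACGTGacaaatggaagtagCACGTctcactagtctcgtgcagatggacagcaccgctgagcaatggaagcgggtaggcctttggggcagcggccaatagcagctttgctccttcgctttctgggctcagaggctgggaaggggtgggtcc
Ldha: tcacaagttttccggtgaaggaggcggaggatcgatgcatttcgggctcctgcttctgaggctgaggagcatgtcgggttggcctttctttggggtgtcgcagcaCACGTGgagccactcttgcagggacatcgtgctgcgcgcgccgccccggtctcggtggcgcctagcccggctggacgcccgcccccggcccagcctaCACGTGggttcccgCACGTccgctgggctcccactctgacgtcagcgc

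Values are deposited log2 intensities, and a difference of 1 is a 2-fold difference in intensity. Each array held values for 32230 to 35905 of the 36227 probes. Array medians were 6.03 to 6.04 at 24 h and 6.35 to 6.36 at 48 h, so a level set across the times carries this step, and differences between the times were taken after quantile normalization of all 12 arrays together. DMA 24 h replicate 3 stood apart: its correlation with the median of its time was 0.742, where the remaining 11 arrays had 0.927 to 0.963 (each array against the rest of its time). Cardiomyocyte markers were poorly covered: 5 of 14 were tested, and Tnnt2, Tnni3, Actc1, Myl2, Myl3, Myl7, Pln and Mb had too few values. The number of arrays limits the precision.

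Coverage of the pathway had gaps, also at some of its brightest probes. Pgam2 and Eno3, the muscle forms of phosphoglycerate mutase and enolase, had a value on 2 arrays each, between 13.32 and 14.77, where array maxima were 14.53 to 15.12. Ldhb, the lactate dehydrogenase subunit that prevails in heart, had 8 values. Pfkl, the liver form of phosphofructokinase, and Pdha1, a catalytic subunit of pyruvate dehydrogenase, had 10 values each but too few in 1 group. Gpi1, Pfkfb1 and Eno1 had no probe with a single symbol, and the probe of Aldoa, the muscle aldolase, was shared with Aldoart1. Missing values of the 32 genes were uneven: 9 on DMSO 48 h replicate 1, 5 on DMSO 24 h replicate 1 and 0 on DMA 24 h replicate 3.

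Mean levels of the tested genes over all arrays ran from 4.76 for Aldoc, the brain-type aldolase, to 13.92 for Ldha, the muscle-type lactate dehydrogenase subunit, and 12 of the 27 had a mean of 11 or more. Slc2a4, which encodes GLUT4, had a mean of 10.24 and Slc2a1, which encodes GLUT1, one of 7.81. The hexokinase probes had means of 12.29 for Hk2, the insulin-responsive form, and 9.26 for Hk1, the constitutive form. Among the phosphofructokinase forms the means were 12.93 for Pfkm (muscle) and 12.26 for Pfkp (platelet). Pyruvate dehydrogenase kinases had 12.79 for Pdk2, 11.13 for Pdk1 and 7.10 for Pdk3. Pkm, the muscle pyruvate kinase, had 6.52 and Pklr, the liver and red cell form, 9.47. Each of these is the brightness of a single probe, which depends on its sequence, so the levels do not rank the isoforms. The Ldha gene shows how far probes can part: its other probe had values from 2.39 to 5.45.

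**Figure D1:**
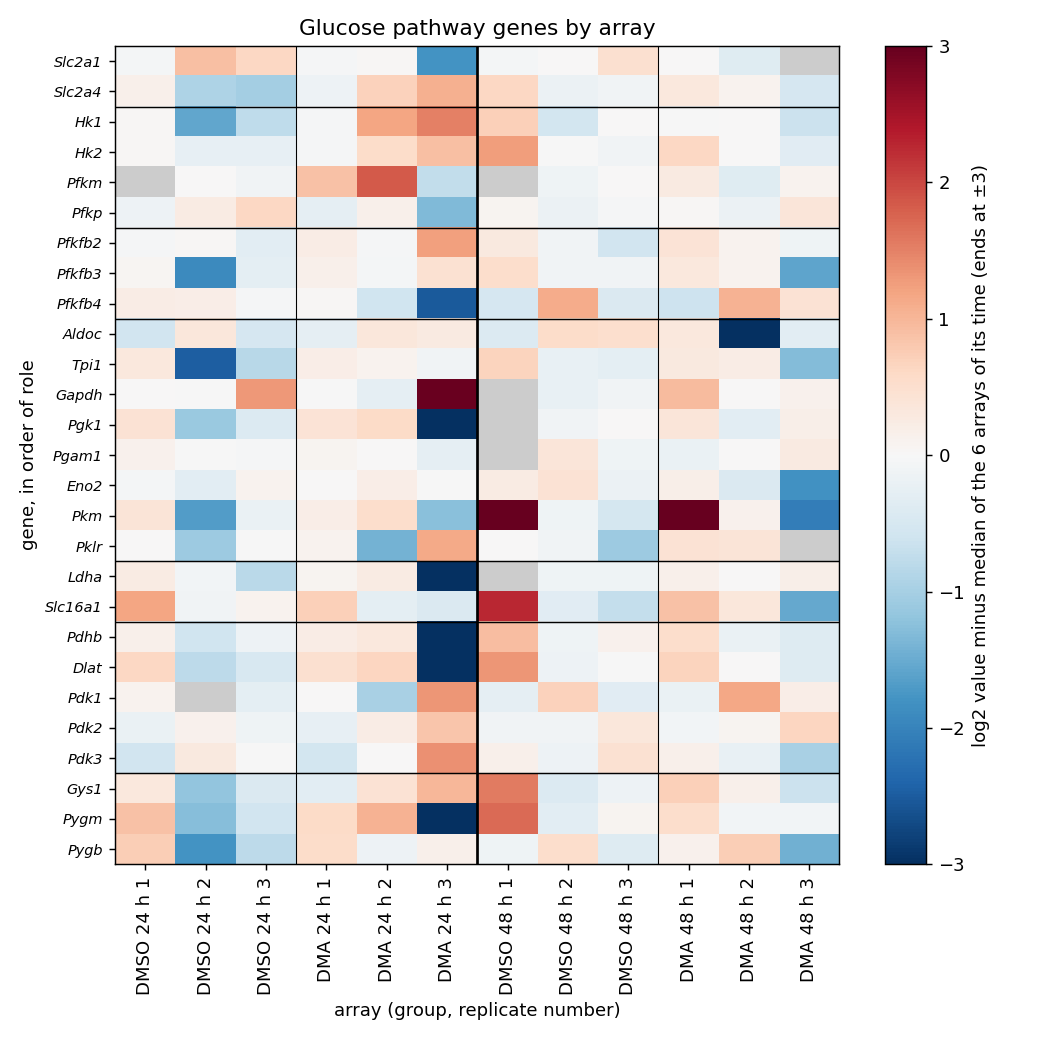
Colour shows the log2 value of each tested gene (rows, in order of role) on each of the 12 arrays (columns) minus the median of the 6 arrays of that time; grey marks a missing value and colours end at 3 units. DMA 24 h replicate 3 holds most of the deepest colours, and both 48 h replicate 1 arrays are red for Pkm.

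At 24 h, DMA hearts had their largest positive differences from vehicle in Hk1 and Slc2a4, which trap and take up glucose, and the largest negative ones in Pdhb, Ldha, Pfkfb4, Slc2a1 and Pgk1. No gene passed the test after adjustment. With limma, 0 of 35401 probes (0%) had an adjusted p under 0.05, and 2 of the 27 genes had an unadjusted p under 0.05, against 2.82% of all genes. With the replicate number as a block that count was 1 (Hk1), and 0 in the block fit on the 6 arrays compared. Of 25 genes with 3 same-numbered pairs of arrays, Pfkfb3 was higher with DMA in every pair (12.4% of all genes were) and Pfkp, Pfkfb4 and Slc16a1 were lower in every pair (9.48% were). In whole hearts, fewer cells of a type and less RNA per cell cannot be told apart.

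Hk1 values in the DMSO hearts were 8.75, 7.14 and 7.94, and in the DMA hearts 8.67, 9.89 and 10.23. DMA replicate 1 lay inside the vehicle range, and replicates 2 and 3 lay above it. The difference was 1.65 (SE 0.54, limma adjusted p = 0.871), and it was 1.34 without DMA 24 h replicate 3.

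Slc2a4 read 9.77, 8.72 and 8.62 with vehicle and 9.49, 10.31 and 10.70 with DMA. Again replicate 1 of DMA lay inside the vehicle range. The difference was 1.13 (SE 0.46, limma adjusted p = 0.871), and the second Slc2a4 probe differed by 1.25. With DMSO 24 h replicate 2 left out, no gene of the pathway had an unadjusted p under 0.05, and the differences were 1.25 for Hk1 and 0.97 for Slc2a4.

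Slc2a1, the basal transporter, read 7.57, 8.52 and 8.24 with vehicle and 7.60, 7.65 and 5.83 with DMA. Its difference of -1.08 (SE 0.51, limma adjusted p = 0.871) was -0.49 without DMA 24 h replicate 3, the lowest array.

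Pfkp, a phosphofructokinase subunit, read 11.91, 12.30 and 12.67 with vehicle and 11.79, 12.21 and 10.73 with DMA, a difference of -0.72 (SE 0.41, limma adjusted p = 0.871). Pfkfb4 encodes an enzyme that makes and breaks fructose 2,6-bisphosphate, the activator of phosphofructokinase. It read 8.29, 8.27 and 8.05 with vehicle and 8.11, 7.48 and 5.57 with DMA, a difference of -1.15 (SE 0.68, limma adjusted p = 0.871). Replicate 3 was the lowest DMA array in both genes, and without it the differences were -0.30 for Pfkp and -0.42 for Pfkfb4.

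Tpi1, triose phosphate isomerase, read 9.01, 6.22 and 7.88 with vehicle and 8.90, 8.81 and 8.61 with DMA. Here the vehicle arrays carried the spread, and the difference was 1.06 (SE 0.66, limma adjusted p = 0.871), or 0.32 without DMSO 24 h replicate 2. The second Tpi1 probe differed by 0.11.

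By role, hexokinases and phosphofructokinases had 3 positive differences of 4, the fructose bisphosphate regulators 2 of 3, the lower steps of glycolysis 6 of 8, lactate genes 0 of 2, pyruvate entry 3 of 5 and glycogen genes 2 of 3. Over the 27 genes, 17 differences were positive and 10 negative, with a median of 0.32, where 55.2% of all genes were positive and their median was 0.09. In 0 of the 27 did the groups stand clear of each other, against 4.42% of all genes higher and 3.29% lower with DMA. Cardiomyocyte markers beside these had 3 positive differences of 5 and a median of 0.04, smooth muscle markers 4 of 7 and 0.48, macrophage markers 6 of 8 and 0.47, lymphocyte markers 5 of 7 and 0.37, and nerve markers 5 of 6 and 0.37. Endothelial markers had 5 of 11 and -0.12, adipocyte markers 2 of 5 and -0.19, and liver markers 1 of 4 and -0.20. Medians were 0.11 for fibroblast, 0.26 for skeletal muscle and 0.47 for red cell markers. Their part in the result was not tested.

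The sign of 10 of the 27 differences turned when DMA 24 h replicate 3, the array that stood apart, was left out. Ldha, Pgk1, Pdhb and Dlat turned from negative to positive. Ldha was 14.22, 14.39 and 9.67 in the DMA hearts against 14.39, 14.05 and 13.34 with vehicle. Pgk1, phosphoglycerate kinase, was 12.41, 12.59 and 6.79 against 12.44, 10.88 and 11.60. For Pdhb, a catalytic subunit of pyruvate dehydrogenase, the DMA values were 12.40, 12.49 and 7.35 against 12.32, 11.59 and 12.03. Dlat, the acetyltransferase of the same complex, had 11.54, 11.70 and 6.88 against 11.68, 10.27 and 10.57. The low value was replicate 3 each time. Differences of -1.16, -1.05, -1.24 and -0.80 for Ldha, Pgk1, Pdhb and Dlat became 0.38, 0.85, 0.46 and 0.78 without it. The second Ldha probe, of low level, went the other way with all arrays in (1.11), and that of Pdhb had -1.28. Pygm went from -0.19 to 1.13 and Pgam1 from -0.09 to 0.01. Turning the other way, Gapdh went from 0.46 to -0.57, Pklr from 0.30 to -0.29, Pdk1 from 0.21 to -0.39 and Pdk3 from 0.37 to -0.17. The 27 differences then had 19 positive and a median of 0.38.

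On DMA 24 h replicate 3, 10 of the 27 genes lay more than 1 unit below the median of the rest of the 24 h set and 8 more than 1 above, against 27.3% and 28.2% of all genes. The 8 pathway genes with a level of 12 or more had a median deviation of -1.32 there, and all 752 genes at that level one of -0.89. DMSO 24 h replicate 2 had 11 of 26 genes more than 1 unit below, against 13.7% of all genes. The part of either array in the 24 h differences beyond these values was not tested.

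**Figure D2:**
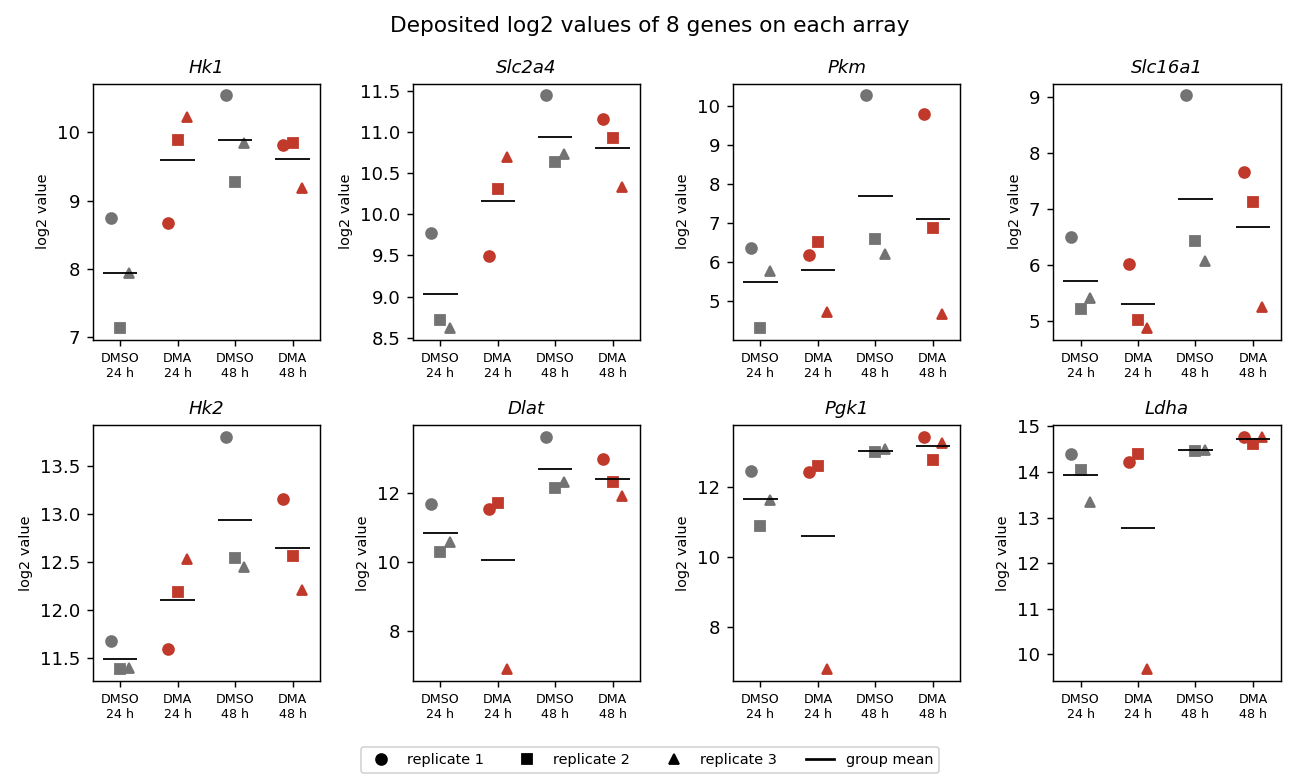
Deposited log2 values of 8 pathway genes on each array, by group (x axis), with the replicate number as the symbol and the group mean as a line; the 8 genes were chosen after their values were seen. Dlat, Pgk1 and Ldha show DMA 24 h replicate 3 far below the other arrays (6.88, 6.79 and 9.67), and Pkm shows both 48 h replicate 1 arrays on top (10.28 and 9.80).

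At 48 h, differences between DMA and vehicle ran from -1.34 for Aldoc to 0.80 for Pklr. With limma, 0 of 35401 probes (0%) passed the adjusted threshold, and 0 of the 27 genes had an unadjusted p under 0.05, against 1.02% of all genes. With the replicate number as a block that count was again 0. Of 20 genes with 3 same-numbered pairs, Pfkfb2, Pdk1 and Pdk2 were higher with DMA in every pair (15.1% of all genes were) and Eno2 and Pdhb were lower in every pair (9.77% were). Eno2, the neuronal form of enolase, had the smallest p.

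Eno2 read 6.03, 6.23 and 5.60 with vehicle and 5.98, 5.35 and 3.96 with DMA. Its difference was -0.86 (SE 0.47, limma adjusted p = 1), and -0.29 without DMA 48 h replicate 3. Aldoc read 4.67, 5.62 and 5.58 with vehicle and 5.40, 1.69 and 4.76 with DMA, so that its difference of -1.34 (SE 0.78, limma adjusted p = 1) lay mostly in DMA replicate 2. Without that array it was -0.21.

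Pklr, a pyruvate kinase of liver and red cells, read 9.82, 9.72 and 8.74 with vehicle and 10.26 and 10.20 with DMA, where replicate 3 had no value. The groups stood clear of each other and the difference was 0.80 (SE 0.70, limma adjusted p = 1), or 0.46 without DMSO 48 h replicate 3. Gapdh and Ldha also had every DMA array above every vehicle array. Gapdh, glyceraldehyde phosphate dehydrogenase, read 6.31 and 6.45 on the 2 vehicle arrays with a value and 7.50, 6.54 and 6.67 with DMA. The second Gapdh probe, of lower level, read 5.76, 5.11 and 3.59 with vehicle and 5.29, 5.47 and 4.42 with DMA. Its ranges overlapped, and the difference was 0.24. Ldha read 14.47 and 14.48 against 14.77, 14.61 and 14.78. Those were 3 of the 27 genes, against 3.95% of all genes higher without overlap; 0 were lower, against 2.33%. All 3 had a missing value on 1 of the 6 arrays. After joint quantile normalization the Ldha groups overlapped, with a difference of 0.03, and the second Ldha probe, of low level, differed by -1.01 on the deposited values.

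Pdk3, a pyruvate dehydrogenase kinase, read 7.20, 6.91 and 7.51 with vehicle and 7.21, 6.83 and 6.08 with DMA, a difference of -0.51 (SE 0.51, limma adjusted p = 1), or -0.19 without DMA 48 h replicate 3. Pfkfb3, the inducible maker of fructose 2,6-bisphosphate, read 7.02, 6.38 and 6.39 with vehicle and 6.81, 6.58 and 4.92 with DMA. Its difference of -0.49 (SE 0.59, limma adjusted p = 1) was 0.10 without DMA 48 h replicate 3. Pfkfb2, the cardiac form, read 9.85, 9.46 and 9.0 with vehicle and 9.98, 9.67 and 9.44 with DMA, and the difference was 0.26 (SE 0.40, limma adjusted p = 1), or 0.04 without DMSO 48 h replicate 3. In all 3 genes the ranges overlapped.

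Of the 27 differences at 48 h, 10 were positive and 17 negative with a median of -0.26, where 51.4% of all genes were positive. The sign of that median rested on single arrays. Without DMA 48 h replicate 3 it was 0.06 with 15 positive, and without DMSO 48 h replicate 1 it was 0.12 with 17 positive. GLUT transporters were negative in 2 of 2, glycogen genes in 3 of 3, pyruvate entry in 3 of 5 and lower steps in 5 of 8. Hexokinases and phosphofructokinases were negative in 2 of 4, lactate genes in 1 of 2 and the fructose bisphosphate regulators in 1 of 3. Endothelial markers, beside them, were negative in 11 of 11 with a median of -0.43, and cardiomyocyte markers in 3 of 5 with a median of -0.0016. Medians were also negative for smooth muscle (-0.27), macrophage (-0.16), red cell (-0.44) and skeletal muscle (-0.15) markers. They were positive for fibroblast (0.15), lymphocyte (0.12), adipocyte (0.09), nerve (0.08) and liver (0.07) markers. The part of these lists in the result was not tested.

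**Figure D3:**
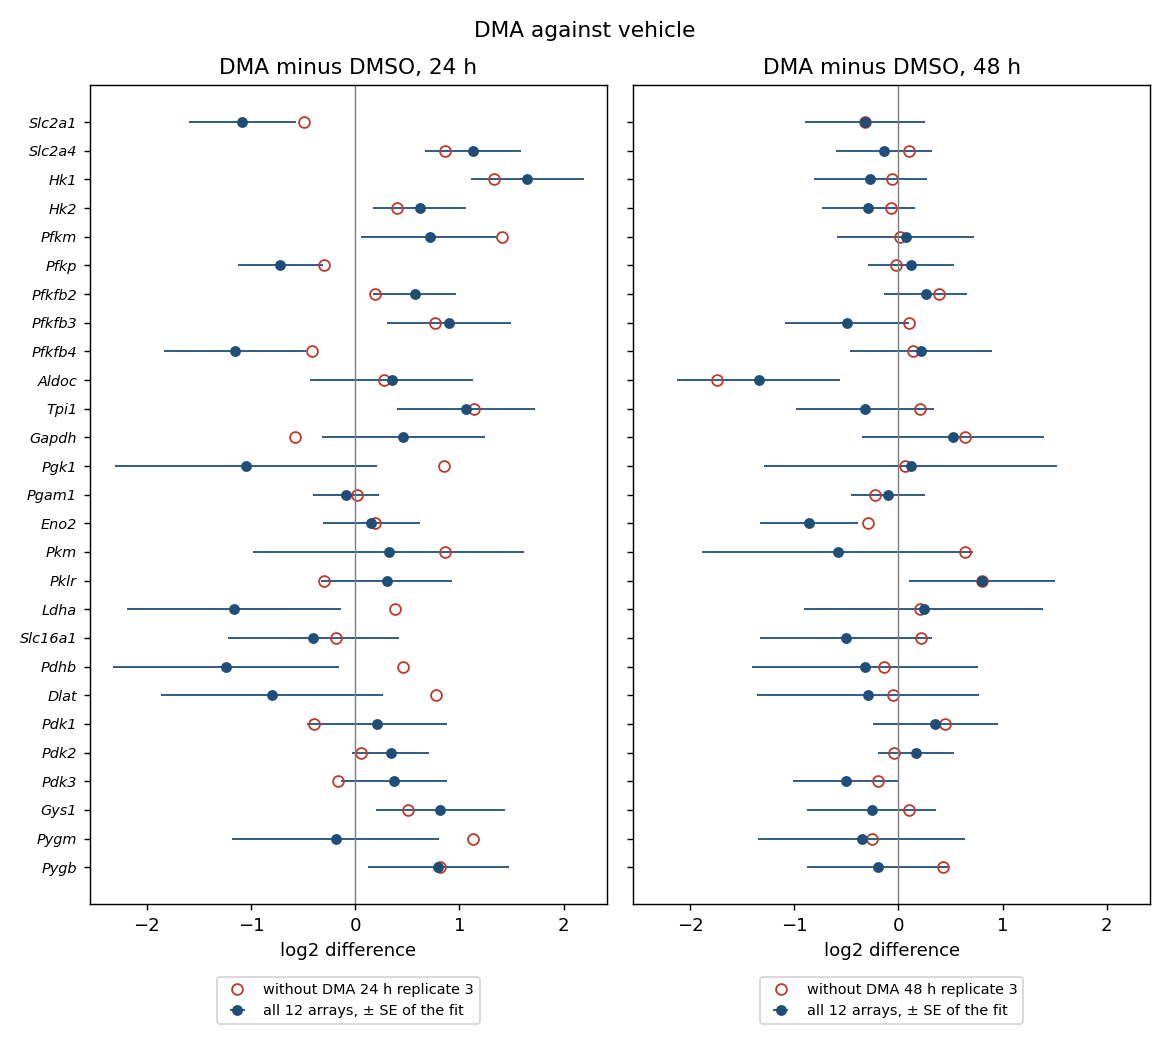
Log2 difference DMA minus DMSO of each tested gene at 24 h (left) and 48 h (right), with the SE of the limma fit as bars; open circles leave out replicate 3 of DMA at that time. At 24 h Pdhb, Ldha, Pgk1 and Dlat move from left of 0 (-1.24, -1.16, -1.05 and -0.80) to right of it, while Hk1 (1.65 to 1.34) stays right.

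The effect of DMA was also compared between the times in the same model, as the 48 h difference minus the 24 h difference. In limma 0 of 35401 probes (0%) passed, and 1 of the 27 genes had an unadjusted p under 0.05, against 1.5% of all genes. That gene, Hk1, gave -1.92 (SE 0.77, limma adjusted p = 0.999), from 1.65 at 24 h and -0.27 at 48 h. With single arrays left out, its value ran from -2.39 to -1.52. Its unadjusted p was no longer under 0.05 without DMSO 24 h replicate 2, or without DMA 24 h replicate 2 or replicate 3. The same held without DMSO 48 h replicate 1 or without DMA 48 h replicate 3. Slc2a4 gave -1.27 (SE 0.65), Pfkfb3 -1.39 (SE 0.84), Eno2 -1.01 (SE 0.66), Aldoc -1.69 (SE 1.11) and Tpi1 -1.38 (SE 0.94), each with a limma adjusted p of 0.999. Leaving out 1 array brought several nearer to 0: Pfkfb3 to -0.80 without DMA 48 h replicate 3 and likewise without DMSO 24 h replicate 2, Eno2 to -0.45 without DMA 48 h replicate 3, Aldoc to -0.56 without DMA 48 h replicate 2 and Tpi1 to -0.64 without DMSO 24 h replicate 2. With the replicate number as a block, 0 of the 27 had an unadjusted p under 0.05. The median over the 27 genes was -0.17, with 17 negative, against 47.8% positive among all genes. Without DMA 24 h replicate 3 that median was -0.74.

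In vehicle hearts, the genes of smallest unadjusted p between 48 h and 24 h were Slc2a4, Hk1, Tpi1 and Hk2, all with higher values at 48 h, on the jointly quantile normalized scale used here and in the next paragraphs. Quantiles of the deposited values differed between the times, so time and whatever else differed between the 24 h and 48 h sets cannot be told apart. With limma, 0 of 35401 probes (0%) passed the adjusted threshold. An unadjusted p under 0.05 was found for 4 of the 27 genes, against 2.76% of all genes, and all 4 were higher at 48 h, against 1.72%. By size the differences of Pkm (1.90) and Pygm (1.79) were the largest of the 27. With the replicate number as a block the unadjusted count was 5, with Slc16a1 added, and it was 10 in the block fit on the 6 arrays compared. That block joined same-numbered arrays across 24 h and 48 h, which the labels do not pair. Deviations of same-numbered vehicle arrays had correlations of only 0.11, -0.0953 and 0.0042 across the times. No conclusion is therefore drawn from the block counts. Vehicle differences in time share the DMSO 24 h arrays with the DMA difference at 24 h. Hk1 (1.65 with DMA at 24 h and 1.38 here) and Slc2a4 (1.13 and 1.33) therefore do not give separate evidence.

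Slc2a4 read 10.09, 9.03 and 8.91 at 24 h and 11.22, 10.35 and 10.44 at 48 h. Every 48 h array was above every 24 h array, and the difference was 1.33 (SE 0.46, limma adjusted p = 1). Hk2 read 11.98, 11.66 and 11.62 at 24 h and 13.94, 12.33 and 12.21 at 48 h. It too stood clear, with a difference of 1.07 (SE 0.48, limma adjusted p = 1) that was 0.52 without DMSO 48 h replicate 1.

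Hk1 read 9.07, 7.38 and 8.21 at 24 h and 10.28, 8.98 and 9.54 at 48 h, a difference of 1.38 (SE 0.55, limma adjusted p = 1). Tpi1 read 9.33, 6.40 and 8.15 at 24 h and 10.19, 9.26 and 9.18 at 48 h, a difference of 1.58 (SE 0.68, limma adjusted p = 1). Without DMSO 24 h replicate 2 the differences were 0.96 for Hk1 and 0.80 for Tpi1, and the second Tpi1 probe differed by -0.50. In both genes the lowest 48 h arrays reached into the range of DMSO 24 h replicate 1.

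Pygm, the muscle glycogen phosphorylase, read 11.84, 9.71 and 10.38 at 24 h and 13.89, 11.51 and 11.90 at 48 h, a difference of 1.79 (SE 1.04, limma adjusted p = 1), or 1.06 without DMSO 48 h replicate 1. Pfkm, with 2 values at each time, read 12.23 and 12.06 at 24 h and 13.28 and 13.46 at 48 h, a difference of 1.22 (SE 0.70, limma adjusted p = 1). Pfkm was among 5 genes with every 48 h array above every 24 h array, with Slc2a4, Hk2, Pdhb and Pgk1, against 6.8% of all genes. Pgk1 too had only 2 values at 48 h, and groups with 2 values stand clear more easily. The gap was narrow for Pgk1 (lowest 48 h array 12.80, highest 24 h array 12.74) and Pdhb (12.64 and 12.62). Gapdh was the 1 gene wholly lower, against 5.88%, also with only 2 values at 48 h. On deposited values its ranges overlapped (6.31 and 6.45 at 48 h against 6.12, 6.11 and 7.42 at 24 h). The second Gapdh probe differed by 0.08 after joint quantile normalization.

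By role, the GLUT transporters were positive in 1 of 2 (Slc2a1 had -0.43), hexokinases and phosphofructokinases in 3 of 4 with a median of 1.15, glycogen genes in 3 of 3 with a median of 0.91, lactate genes in 2 of 2, lower steps in 6 of 8 and the fructose bisphosphate regulators in 2 of 3. In pyruvate entry, Dlat had 1.43 (SE 1.11) and Pdhb 0.97 (SE 1.12). Pdk1, Pdk2 and Pdk3, the kinases that inhibit that complex, had -0.43 (SE 0.65), -0.01 (SE 0.34) and -0.29 (SE 0.51). The negative signs depended on the scaling. On deposited values, which carry the step between the times, the 3 kinases had 0.12, 0.40 and 0.15, with 1.86 for Dlat and 1.30 for Pdhb. The second Pdhb probe had 0.11 after joint quantile normalization. Over the 27 genes, 19 were positive with a median of 0.80, where 51.7% of all genes were positive and their median was 0.02. On the deposited values 25 were positive with a median of 1.09, and after centring each array on its median 21 were positive with a median of 0.77.

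The size of this step depended on single arrays. Its median was 0.52 without DMSO 48 h replicate 1 and 0.52 without DMSO 24 h replicate 2. With either DMSO 48 h replicate 1 or replicate 3 of DMSO 24 h left out, no pathway gene had an unadjusted p under 0.05. Marker lists moved beside it: endothelial markers were positive in 10 of 11 with a median of 0.63, fibroblast markers in 6 of 9 with 0.54, cardiomyocyte markers in 3 of 5 with 0.31 and adipocyte markers in 0 of 5 with -0.37. The other lists had medians from -0.48 (liver) to 0.27 (smooth muscle). On deposited values the cardiomyocyte mean over the 4 markers complete on all arrays was 5.62 to 7.58 at 24 h and 6.88 to 8.84 at 48 h in vehicle hearts. Their part in the result was not tested.

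In DMA hearts, the step from 24 h to 48 h had a median of 0.06 over the 27 genes, with 16 positive, where 48.8% of all genes were positive. In limma 0 of 35401 probes (0%) passed, and 1 of the 27 genes had an unadjusted p under 0.05, against 2.66% of all genes. With the replicate number as a block, here too joined across the times, the count was also 1, but the gene was Slc16a1. Without the block it was Pdk3, which read 6.82, 7.41 and 8.79 at 24 h and 6.99, 6.63 and 5.93 at 48 h. Its difference of -1.15 (SE 0.51, limma adjusted p = 0.816) was -0.60 without DMA 24 h replicate 3.

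Eno2 read 5.85, 6.07 and 5.84 at 24 h and 5.84, 5.27 and 3.94 at 48 h, a difference of -0.90 (SE 0.45, limma adjusted p = 0.816) with every 48 h array below every 24 h array. It was -0.36 without DMA 48 h replicate 3. Aldoc read 4.75, 5.40 and 5.30 at 24 h and 5.31, 1.61 and 4.71 at 48 h, a difference of -1.27 (SE 0.79, limma adjusted p = 0.816). Its value of 1.61, on DMA 48 h replicate 2, lay far below the others, and without that array the difference was -0.14.

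Dlat read 11.83, 12.01 and 7.09 at 24 h and 12.70, 12.05 and 11.62 at 48 h, a difference of 1.82 (SE 1.11, limma adjusted p = 0.816). Ldha read 14.34, 14.54 and 9.94 at 24 h and 14.56, 14.56 and 14.60 at 48 h, a difference of 1.64 (SE 1.01, limma adjusted p = 0.816). Pgk1 read 12.69, 12.87 and 6.99 at 24 h and 13.19, 12.51 and 13.00 at 48 h, a difference of 2.05 (SE 1.28, limma adjusted p = 0.816). Without that low DMA 24 h array the differences of Dlat, Ldha and Pgk1 were 0.20, 0.14 and 0.12. With all arrays in, the second Ldha probe had -0.94.

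Genes of smallest p in the vehicle step had small or negative differences here: 0.05 for Slc2a4, 0.06 for Hk2, 0.14 for Tpi1 and -0.58 for Hk1. These genes were picked by their p in the vehicle arrays. Smaller differences in other arrays were therefore likely from the start, and no conclusion is drawn from them. The test of this contrast between treatments is the one given above for the DMA effect between the times, which no gene passed. For Hk2 that test gave -0.91 (SE 0.63, limma adjusted p = 0.999). Side by side, 12 of the 27 genes (44.4%) were positive in both treatments, against 28.7% of all genes, and 4 (14.8%) were negative in both, against 28.3%. Without DMA 24 h replicate 3 the counts were again 12 and 4. Ldha was the 1 gene with every 48 h array above every 24 h array, against 2.86% of all genes, and Eno2 the 1 wholly lower, against 3.73%. In both steps, time and other differences between the sets cannot be told apart.

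**Figure D4:**
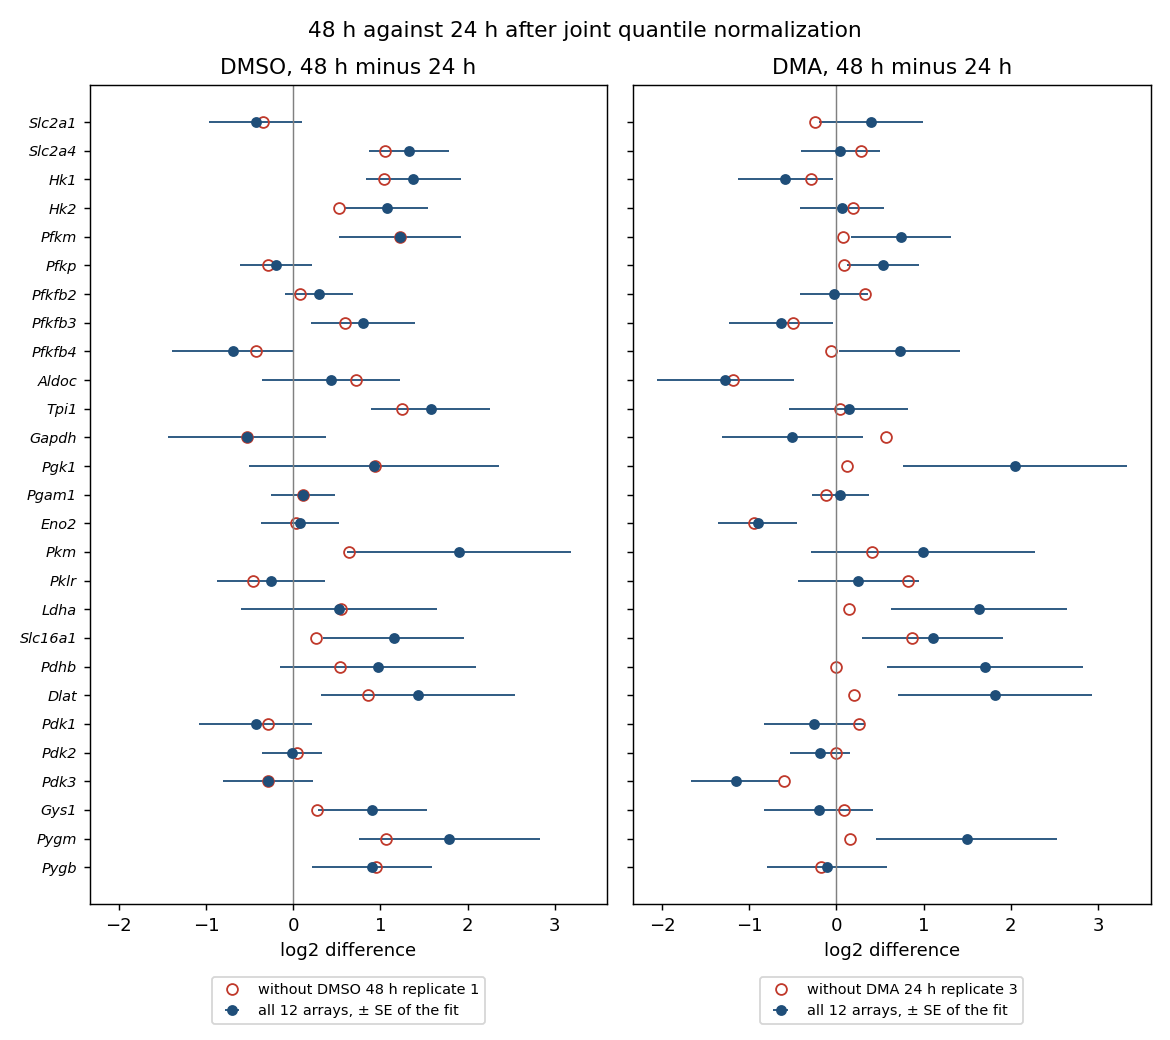
Log2 difference 48 h minus 24 h of each tested gene in DMSO hearts (left) and DMA hearts (right) after joint quantile normalization, with the SE of the limma fit as bars; open circles leave out DMSO 48 h replicate 1 (left) or DMA 24 h replicate 3 (right). On the left most points lie right of 0 (19 of 27); on the right Pgk1, Dlat, Pdhb and Ldha drop from 2.05, 1.82, 1.71 and 1.64 to near 0 without the array left out.

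Replicate number went with the level of many pathway genes at 48 h, a pattern noticed after the values were seen and not tested. Of 20 genes complete on the 6 arrays, 11 had both replicate 1 arrays, the vehicle and the DMA one, as the 2 highest, against 17% of all genes. They were Slc2a4, Hk2, Pfkfb2, Pfkfb3, Tpi1, Pkm, Slc16a1, Pdhb, Dlat, Gys1 and Pygm. The widest gap was in Pkm, at 10.28 (DMSO) and 9.80 (DMA) on replicate 1 and between 4.67 and 6.86 on the other 4 arrays. Slc16a1, the lactate and pyruvate carrier MCT1, read 9.03 and 7.66 on replicate 1 and between 5.24 and 7.12 elsewhere. Gys1, the muscle glycogen synthase, read 10.88 and 10.04 against 8.66 to 9.47. For 6 genes both replicate 3 arrays were the 2 lowest, against 13.6% of all genes: Hk2, Pfkfb2, Tpi1, Pkm, Slc16a1 and Pygb.

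Marker lists showed the same order in part. Both replicate 1 arrays at 48 h were highest for 2 of 4 cardiomyocyte, 3 of 9 endothelial, 4 of 7 fibroblast and 2 of 8 macrophage markers. They were highest for 1 of 6 smooth muscle and 1 of 6 skeletal muscle markers. For lymphocyte (0 of 6), adipocyte (0 of 5), nerve (0 of 5), liver (0 of 4) and red cell markers (0 of 2) there was none. Cardiomyocyte marker means were 8.84 and 8.57 on the replicate 1 arrays and 6.70 to 8.33 on the other 4. Endothelial (9.55 and 9.43 against 8.09 to 9.30) and fibroblast means (10.32 and 10.27 against 9.20 to 9.91) had the same order. In the remaining lists the replicate 1 means were not both above the other 4. Their part in the pathway values was not tested. At 24 h both replicate 1 arrays were highest for 4 of 25 genes, against 8.91% of all genes.

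Balance between isoforms was taken as the difference of 2 probes on the same array, which cancels what both probes share. Of 13 pairs listed, 7 had enough values, and 4 of their 28 changes between groups were without overlap. Those of Pfkm minus Pfkp had a group with only 2 values, where groups stand clear more easily, and several changes share arrays. No share over other probe pairs was computed, so the count is a description and no result about these pairs. Exact permutation tests were possible for 19, the smallest p that 3 against 3 arrays allow is 0.1, and the smallest Benjamini-Hochberg adjusted p was 0.76, so none passed.

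Hk1 minus Hk2 at 24 h was -2.92, -4.24 and -3.45 with vehicle and -2.92, -2.29 and -2.31 with DMA. The groups met at -2.92 without overlapping, and the change was 1.03 (two-sided exact permutation p = 0.1, adjusted 0.76), or 0.93 without DMA 24 h replicate 3. At 48 h that change was 0.02. Pkm minus Pklr in vehicle hearts went from -3.25, -4.34 and -3.81 at 24 h to 0.47, -2.99 and -2.41 at 48 h, a change of 2.16 (two-sided exact permutation p = 0.1, adjusted 0.76) in which replicate 1 stood highest.

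Pfkm minus Pfkp, muscle against platelet phosphofructokinase, was -0.35 and -0.82 on the 2 vehicle arrays with both values at 24 h and 1.06, 1.57 and 0.50 with DMA. The groups did not overlap, with a change of 1.62, or 1.90 without DMA 24 h replicate 3. In vehicle hearts it went from -0.34 and -0.75 at 24 h to 1.11 and 1.15 at 48 h, a change of 1.67. These comparisons share the same 24 h vehicle arrays, and with 2 of them no test was run. Slc2a1 minus Slc2a4 at 24 h was -2.21, -0.20 and -0.37 with vehicle and -1.89, -2.66 and -4.86 with DMA, a change of -2.21 with overlapping ranges (two-sided exact permutation p = 0.2, adjusted 0.76), or -1.35 without DMA 24 h replicate 3.

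Beyond the 36 genes, 66 others of glucose, lactate, pyruvate and glycogen handling were listed, and 46 were tested. None passed limma's adjusted threshold in any comparison, and the unadjusted count was 0 in each except the DMA step from 24 h to 48 h, where it was 2, against 2.66% of all genes. Those were Slc16a7, the carrier MCT2, with 1.84 (SE 0.81, limma adjusted p = 0.816), and Gapdhs, the sperm form of Gapdh, with 0.88 (SE 0.35, limma adjusted p = 0.816). Differences between DMA and vehicle were positive in 30 of 46 at 24 h (median 0.13; 55.2% of all genes were) and in 23 of 46 at 48 h (median -0.0002; 51.4%), and the vehicle step was positive in 30 of 46 (median 0.25; 51.7%). Pdk4, the kinase that fasting induces in heart, differed by 0.59 (SE 1.39) at 24 h and -0.22 (SE 1.39) at 48 h. Txnip, a glucose-responsive brake on uptake, differed by 0.37 (SE 0.50) and -0.30 (SE 0.40). Mpc1, a subunit of the mitochondrial pyruvate carrier, differed by 0.05 (SE 0.63) and 0.13 (SE 0.70).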

How the data were processed

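Heart RNA of 12 samples (4 groups of 3) was measured on 1-colour arrays; per the labels, myocardial polyA RNA was copied to biotinylated cRNA and detected with Cy5-streptavidin. The authors deposited log2 values for 36227 probes; background correction and normalization are not given in the sources used here. All value columns were matched to samples by their labels, and 0 were left unused. The platform annotation gave 21615 probes 1 gene symbol, 681 several (not named) and 13931 none; RefSeq names are of GRCm38.p6. The 35401 probes with 2 or more values in each group entered 1 linear model over all 12 arrays with 4 group terms (R 4.3.3, limma 3.58.1, empirical Bayes), Benjamini-Hochberg adjusted over all probes at 0.05. Missing values were dropped, not imputed. DMA against DMSO used the values as deposited; 48 h against 24 h used joint quantile normalization. The fit was tested on simulated data. Promoters, isoform balances and plots were made in Python 3.11.15 with matplotlib 3.10.9.

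Members, gene lists and tests were chosen with earlier results of these data known. Genes described in full had an unadjusted p under 0.05 in a comparison, filled to 6 by smallest p; others that are named were chosen after their values were seen. Same-numbered DMA and DMSO arrays deviated together from their group means (correlations 0.11 to 0.186 at 24 h and 0.266 to 0.329 at 48 h). Different-numbered ones had -0.1008 to -0.0117 at 24 h and -0.2076 to -0.0836 at 48 h. The numbers were therefore taken as pairing the arrays within a time, from the data and not the labels. Arrays sharing neither number nor time reached 0.305 (DMSO 24 h replicate 2 with DMA 48 h replicate 3), above every 24 h value. The pairing is thus an assumption, least secure at 24 h. Alternatives were other scalings, filters, probe rules, array weights, a replicate block, a trend along the probe number and leaving out arrays.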

Additional observations from a re-analysis of the deposited data

How the results depend on the processing

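Each comparison had 0 probes past limma's adjusted threshold, and also with the replicate number as a block, where 0 were called at either time; unadjusted counts with the block were 1540 of 35401 at 24 h (1071 without it) and 809 at 48 h (494 without it), or 1466 at 48 h in the block fit on the 6 arrays compared. For the pathway genes the block changed no adjusted call, and the unadjusted counts moved as given with each comparison. Leaving out single arrays gave 0 to 14 called probes for DMA at 24 h, 0 to 1 at 48 h, 0 to 19 for the DMA step in time and 0 to 4 for the DMA effect between times, none of them a pathway gene. Without replicate 3 of both DMA groups the 48 h count was 3. Pfkfb3 at 48 h reversed to 0.10 without DMA 48 h replicate 3 and, alike, without replicate 3 of both DMA groups, and spanned -0.85 to 0.10 with single arrays left out.

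The median of the DMA step in time was 0.64 on deposited values and 0.06 after joint quantile normalization, -0.01 without DMA 48 h replicate 1, 0.29 (18 positive) without DMA 48 h replicate 3 and 0.31 (19 positive) after median centring. The median of the DMA effect between times was -0.90 over the 19 genes with a value on all 12 arrays, and between -0.74 and -0.015 with single arrays left out. The other differences of genes described in full kept their direction under every alternative run. Those were 119 values at 24 h, 114 of 116 at 48 h, 131 for the vehicle step, 116 for the DMA step and 135 for the DMA effect between times. They cover only the 6 genes of smallest unadjusted p in each comparison, picked from these same data. A kept direction was therefore likely from the start and gives no separate support. Other genes did turn, such as Ldha, Pgk1, Pdhb and Dlat at 24 h without DMA 24 h replicate 3. The cause of these shifts was not tested. The number of arrays limits the test, and missing values fell on bright probes and on some dimmer ones.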
